A study of Mus musculus with 6 samples.

Results

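The 9 genes described here encode secreted products of Paneth cells that are not alpha-defensins: Lyz1, Mmp7, Ang4, Itln1, Mptx1, Mptx2, Habp2, Pnliprp2 and Clps. They were chosen by name among the 54012 genes of a table of RNA abundance, and each name matched 1 gene. Total RNA of mouse intestine, named as small intestine in the series title, was sequenced from 3 mice labelled wild type (WT) and 3 mice labelled TLR4ΔIEC, all aged 8 to 12 weeks and collected on the same day. The question, as far as the title gives it, is what depletion of intestinal TLR4, the receptor for bacterial lipopolysaccharide, does to gene expression. TLR4ΔIEC is commonly read as a deletion of Tlr4 in intestinal epithelial cells, although the labels do not spell the name out. The strain, the sex, the Cre line and the stretch of small intestine taken are not given in the sources used here, and no treatment is named for either group.

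Paneth cells sit at the base of the crypts of the small intestine, next to the stem cells. They release granules of antimicrobial proteins into the crypt and send growth signals such as Wnt3 to the stem cells. Their fate depends on Wnt signals and Sox9, and their large secretory apparatus on Xbp1 and Bhlha15. Beside alpha-defensins, which are made as precursors and cut by the protease Mmp7 in mice, the granules hold lysozyme, ribonucleases, lectins and lipid-digesting proteins, whose messages share no family with the defensins.

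Values are TPM, a measure of transcript abundance per length scaled to the same total in every library, so that levels can be set side by side between genes. Fold changes are on the scale of log2(TPM + 1), as TLR4ΔIEC minus WT, and were tested with limma across 13458 genes whose mean reached 1 TPM, with Benjamini-Hochberg adjustment at 0.05. All 9 genes passed that filter. Because TPM keep no read totals, the depth of each library is unknown. In RNA of a whole tissue, fewer Paneth cells and less RNA per Paneth cell cannot be told apart.

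Tlr4 itself stood low, at 0.57 to 0.70 TPM in WT, against 1.29, 1.22 and 4.81 TPM in TLR4ΔIEC replicates 1 to 3. This difference did not pass the threshold (adjusted p of 0.243 by limma). Its level does not bear the labels out. It cannot speak against them either, as TPM per gene in whole tissue do not show whether Tlr4 is deleted in epithelial cells. Each direction given here compares libraries as they are labelled. The library of TLR4ΔIEC replicate 2 stood apart from the others, with 12221 genes at 1 TPM or more against 13197 to 13634, and with Rn18s, a gene of 18S ribosomal RNA, at 12836 TPM against 3806 to 7032 TPM. Over all tested genes the median log2 fold change was 0.16.

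Every one of the 9 genes had a lower mean in the libraries labelled TLR4ΔIEC and a log2 fold change below 0, as 31.9% of all tested genes did, and none passed the threshold. Together they made up 1.78%, 1.52% and 1.77% of all TPM in WT replicates 1 to 3, and 1.20%, 0.239% and 0.307% in TLR4ΔIEC replicates 1 to 3. All 3 libraries labelled TLR4ΔIEC thus lay below all 3 WT libraries, with replicate 1 at 71.0% of the WT mean and replicates 2 and 3 at 14.1% and 18.2%. By limma with adjustment, 0 of 9 were called, where 16 of all tested genes were called (0.119%), 10 of them as lower (0.0743%). At an unadjusted p under 0.05, 8 of 9 were lower, against 2.77% of all tested genes as lower and 21.2% in either direction. A log2 fold change of −1 or less was seen in 9 of 9, against 2.62%, and 7 of 9 had all 3 TLR4ΔIEC values below all 3 WT values, against 3.53% (24.1% of all tested genes had the groups apart with TLR4ΔIEC higher, and 27.6% in either direction). Under 4 other scalings the share of all tested genes that were apart and lower was 6.72% to 12.8%, and 7 or 8 of the 9 were. The 9 of 9 past −1 became 7 with a pseudocount of 5 TPM (Mptx1 at −0.79 and Habp2 at −0.99) and 8 without TLR4ΔIEC replicate 2 (Habp2 at −0.94). The median log2 fold change of the 9 was −2.0. These shares describe a set that was chosen with earlier results of the same libraries known.

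**Figure D1:**
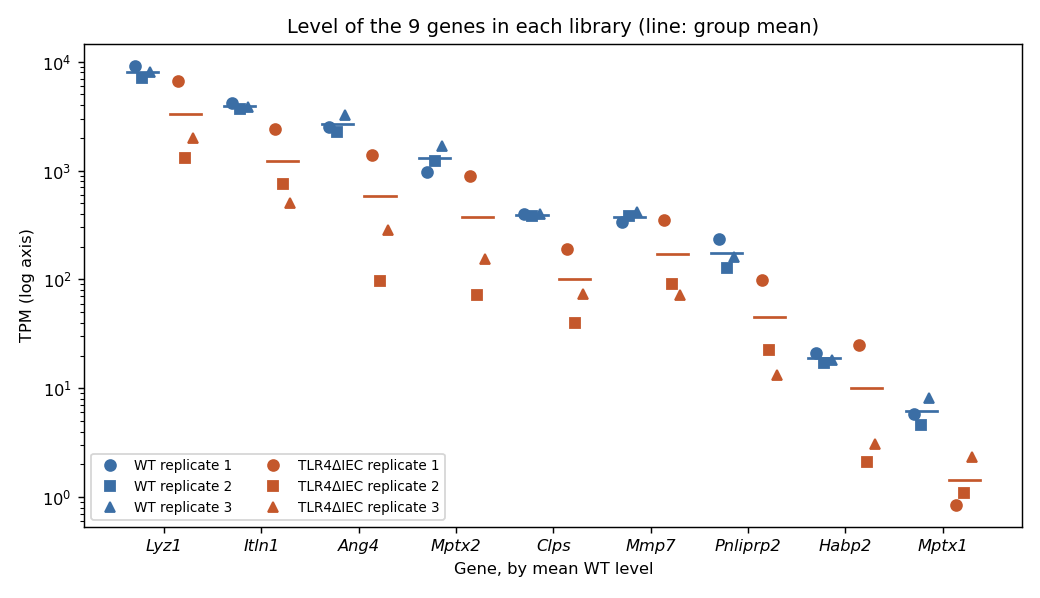
TPM of the 9 genes in each library on a log axis, with WT in blue, TLR4ΔIEC in orange, a symbol for each replicate number and a line at each group mean. TLR4ΔIEC replicate 1 sits nearest to WT in 8 genes, and in Mptx1 it is the lowest library at 0.85 TPM.

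Among the bactericidal enzymes, lysozyme was the most abundant message. Lyz1 (ENSMUSG00000069515, GRCm38 chromosome 10, 117287797 to 117292868, minus strand) encodes the Paneth form of lysozyme, which cuts the peptidoglycan of bacterial walls. Its level by replicate was 9133, 7142 and 7956 TPM in the WT mice, against 6637, 1314 and 1968 TPM under the label TLR4ΔIEC. The groups did not overlap, but replicate 1 lay just under the lowest WT library. Mean levels came to 8077 ± 1001 TPM in WT, against 3306 ± 2903 TPM in TLR4ΔIEC (SD over n = 3 mice). The log2 fold change was −1.64 (SE 0.57, 95% interval −2.98 to −0.30, limma adjusted p = 0.174).

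Lyz1 has a neighbour on the same strand, Lyz2 (chromosome 10, 117277331 to 117282321), the lysozyme of macrophages and other myeloid cells. The first 240 bases of both coding sequences are shown because a read from this stretch can be placed only by the few bases that differ. They come from GENCODE M21 transcripts (GRCm38, minus strand, spanning exons within chr10:117291090-117292838 and chr10:117280702-117282242), with the 17 differing bases in capitals.
Lyz1: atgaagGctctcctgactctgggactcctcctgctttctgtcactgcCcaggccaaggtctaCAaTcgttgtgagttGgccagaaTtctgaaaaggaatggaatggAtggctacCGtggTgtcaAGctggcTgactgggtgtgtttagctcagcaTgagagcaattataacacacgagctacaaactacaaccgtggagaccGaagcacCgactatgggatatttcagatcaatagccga
Lyz2: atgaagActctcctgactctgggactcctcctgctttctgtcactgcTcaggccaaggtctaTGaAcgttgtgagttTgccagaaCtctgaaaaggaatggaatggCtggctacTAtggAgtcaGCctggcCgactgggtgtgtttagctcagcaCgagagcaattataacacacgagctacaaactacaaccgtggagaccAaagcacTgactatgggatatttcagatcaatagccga

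Over the whole coding sequence of 447 bases the pair was 95.1% identical, and 16.1% of the 50-base words of the Lyz1 transcript also occur in that of Lyz2. Their split in the table therefore rests on the authors' assignment of shared reads. Lyz2 stood at 72.7, 75.6 and 90.5 TPM in WT, against 90.2, 19.7 and 124 TPM in TLR4ΔIEC replicates 1 to 3. Its groups overlapped at a log2 fold change of −0.38 (SE 0.62, limma adjusted p = 0.767). As a share of Lyz1, Lyz2 was 0.796% to 1.14% in WT and 1.36%, 1.5% and 6.28% in the TLR4ΔIEC libraries.

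Ang4 had the largest fold change of the 9 genes in the fit of all 6 libraries. Ang4 (ENSMUSG00000060615, chromosome 14, 51763878 to 51773590, minus strand) encodes a ribonuclease of the angiogenin family that kills gut bacteria. WT replicates 1 to 3 held 2526, 2251 and 3223 TPM, and TLR4ΔIEC replicates 1 to 3 held 1382, 96.1 and 285.0 TPM. Each TLR4ΔIEC library lay below each WT library, and replicate 2 was at 3.60% of the WT mean. The means were 2667 ± 501.2 and 587.7 ± 694.3 TPM, with a log2 fold change of −2.97 (SE 0.86, 95% interval −4.99 to −0.95, limma adjusted p = 0.133).

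Its relative Ang, an angiogenin of wider expression, was instead higher. Ang stood at 22.9, 23.4 and 25.7 TPM in WT, against 30.1, 87.9 and 56.5 TPM in TLR4ΔIEC, so that every TLR4ΔIEC library was above every WT library. The log2 fold change was 1.12 (SE 0.35) and did not pass either (limma adjusted p = 0.152). The coding sequences of Ang4 and Ang were 85.5% identical and their transcripts shared 0% of 50-base words. Ang was 0.798% to 1.04% of the Ang4 level in WT, and 2.17%, 91.4% and 19.8% in TLR4ΔIEC replicates 1 to 3.

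Itln1 (ENSMUSG00000038209, chromosome 1, 171518122 to 171535294, minus strand) encodes intelectin, a lectin that binds sugars of microbial surfaces and is made by Paneth and goblet cells. It was measured at 4161, 3678 and 3827 TPM in WT, the second highest of the 9. In TLR4ΔIEC it was at 2417, 749 and 501 TPM, with no overlap and with replicate 3 the lowest. The means were 3889 ± 247.2 and 1222 ± 1042 TPM, with a log2 fold change of −2.0 (SE 0.54, 95% interval −3.28 to −0.73, limma adjusted p = 0.118). Of 10 goblet cell markers, 0 were called by limma in either direction, 8 had log2 fold changes above 0 and 2 below 0, and their summed TPM were 12299 to 13688 in WT and 18404 to 27288 in TLR4ΔIEC. Zg16 and Tff3 made up most of that sum. The 2 below 0 were Spink4 and Retnlb, with log2 fold changes of −0.43 and −1.42 (limma adjusted p = 0.377 and 0.415). Between the groups, Itln1 was thus lower and the goblet sum higher in TLR4ΔIEC. Within TLR4ΔIEC this did not hold, as replicate 3 had both the lowest Itln1 and the lowest goblet sum.

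The mucosal pentraxins are short, secreted relatives of C-reactive protein, and the pair differed both in level and in pattern. Mptx2 (ENSMUSG00000079180, chromosome 1, 173274382 to 173277777, minus strand) is an abundant Paneth message and stood at 974, 1222 and 1676 TPM in WT. In TLR4ΔIEC replicates 1 to 3 it was at 895, 72.5 and 154 TPM. Replicate 1 was close under the lowest WT library, and the others were at 5.62% and 12.0% of the WT mean. The log2 fold change was −2.54 (SE 0.83, 95% interval −4.50 to −0.57, limma adjusted p = 0.161). Mptx1 (ENSMUSG00000026531, chromosome 1, 174330518 to 174332873, plus strand) was low throughout, with 5.75, 4.63 and 8.06 TPM in WT. It stood at 0.85, 1.09 and 2.33 TPM in TLR4ΔIEC, all below WT. Replicate 1, the highest TLR4ΔIEC library of the other 8 genes, was here the lowest. The log2 fold change was −1.58 (SE 0.29, 95% interval −2.27 to −0.89), with the smallest adjusted p of the 9 (limma, 0.0926).

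The start of both pentraxin coding sequences is shown for the same reason as in the lysozymes. The 240 bases come from GENCODE M21 transcripts (GRCm38, exons within chr1:174330573-174332369 on the plus strand and chr1:173274881-173277722 on the minus strand), with the 10 differing bases in capitals.
Mptx1: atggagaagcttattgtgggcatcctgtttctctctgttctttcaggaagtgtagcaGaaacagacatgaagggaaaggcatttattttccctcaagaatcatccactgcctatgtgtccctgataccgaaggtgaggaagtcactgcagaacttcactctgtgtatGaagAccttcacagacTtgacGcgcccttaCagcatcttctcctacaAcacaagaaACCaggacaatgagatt
Mptx2: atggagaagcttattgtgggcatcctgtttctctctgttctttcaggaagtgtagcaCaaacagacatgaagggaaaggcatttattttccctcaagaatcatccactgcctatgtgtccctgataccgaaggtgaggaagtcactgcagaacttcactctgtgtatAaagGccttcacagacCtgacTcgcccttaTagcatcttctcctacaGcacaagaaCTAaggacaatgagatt

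Across 660 coding bases the pentraxins were 92.0% identical, and 17.9% of the 50-base words of the Mptx1 transcript occur in that of Mptx2. Mptx1 read 0.379% to 0.591% of Mptx2 in WT, and 0.0949%, 1.5% and 1.51% in TLR4ΔIEC replicates 1 to 3. At such shares, a few wrongly assigned reads of Mptx2 would change Mptx1, and the low values of Mptx1 are uncertain for that reason.

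The upstream sequences of the pentraxins were compared because both genes had lower means. The 250 bases before each RefSeq start (GRCm38.p6, chr1:174330268-174330517 on the plus strand for Mptx1 and chr1:173277757-173278006 on the minus strand for Mptx2) aligned over 228 bases at 86.4% identity. Capitals mark matches on either strand to TATAAA, a word of the TATA box, or to 1 of 4 TCF/LEF words. TCF/LEF factors, the nuclear effectors of Wnt signals, can bind these words (CTTTGAT or CTTTGAA, and also CTTTGTT or CTTTGTA). A marked TATAAA is a match of letters and need not be a working TATA box.
Mptx1: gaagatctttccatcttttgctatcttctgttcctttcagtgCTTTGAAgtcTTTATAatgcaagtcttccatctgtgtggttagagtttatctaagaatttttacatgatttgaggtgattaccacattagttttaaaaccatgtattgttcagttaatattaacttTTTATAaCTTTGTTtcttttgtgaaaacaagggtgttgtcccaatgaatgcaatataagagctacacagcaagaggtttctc
Mptx2: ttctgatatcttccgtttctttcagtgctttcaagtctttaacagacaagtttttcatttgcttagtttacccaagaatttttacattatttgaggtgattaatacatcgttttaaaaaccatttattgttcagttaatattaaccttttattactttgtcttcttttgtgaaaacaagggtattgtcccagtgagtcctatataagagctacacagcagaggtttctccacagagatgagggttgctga

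Mptx1 held 2 TCF/LEF words and Mptx2, the far more abundant message, held none of these letters. Of the 9 genes, 8 had a window of 250 bases before to 50 bases after a RefSeq start. A TCF/LEF word was in 2 of the 8, Mptx1 and Mmp7, against 16.9% of 32851 windows of the same length. TATAAA on either strand was in windows of the same 2 genes, against 13.6% of all windows. The 8 were counted by gene and both shares by window, and Mmp7 had 2 windows, so the counts and shares differ in unit. In Mptx1 both matches were on the opposite strand, at −198 to −193 and −82 to −77 from the start. Near-matches such as tataag, which both pentraxin stretches hold near their ends, were not marked or counted.

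Mmp7 (ENSMUSG00000018623, chromosome 9, 7692090 to 7699585, plus strand) encodes matrilysin, the protease that activates alpha-defensin precursors in mice. It is the member that acts on the defensins, and the stretch around its start is shown because it holds both kinds of word, from 60 bases before to 20 bases after the RefSeq start (GRCm38.p6, chr9:7692030-7692109, plus strand), with TATAAA and the reverse complement of CTTTGAT in capitals.
Mmp7: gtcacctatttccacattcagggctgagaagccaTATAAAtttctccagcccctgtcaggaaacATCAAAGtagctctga

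Mmp7 was at 333, 385 and 413 TPM in WT. TLR4ΔIEC replicate 1, at 352 TPM, lay within the WT range, while replicates 2 and 3 were at 90.5 and 72.6 TPM. The groups thus overlapped, with 2 of 3 TLR4ΔIEC libraries below the lowest WT library. The means were 377.2 ± 40.5 and 171.6 ± 156.2 TPM, with a log2 fold change of −1.5 (SE 0.55, 95% interval −2.79 to −0.20, limma adjusted p = 0.187). The alpha-defensins, whose 45 genes share near-identical sequence and were summed for that reason, took 26.5%, 25.3% and 28.7% of all TPM in WT, against 18.4%, 5.21% and 6.61% in TLR4ΔIEC. Set against the WT mean, the defensin sum was at 68.6%, 19.4% and 24.6% in TLR4ΔIEC replicates 1 to 3, and Mmp7 at 93.2%, 24.0% and 19.3%.

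Clps and Pnliprp2 belong to fat digestion. Clps (ENSMUSG00000024225, chromosome 17, 28558149 to 28560766, minus strand) encodes colipase, the cofactor that anchors lipase to fat droplets. It had the tightest WT values of the 9 genes, 402, 381 and 399 TPM. TLR4ΔIEC replicates 1 to 3 were at 190, 40.0 and 72.8 TPM, all below WT, with replicate 1 at 48.2% of the WT mean. The means were 394.2 ± 11.8 and 100.9 ± 78.8 TPM, with a log2 fold change of −2.25 (SE 0.50, 95% interval −3.43 to −1.07, limma adjusted p = 0.1). Pnliprp2 (ENSMUSG00000025091, chromosome 19, 58759719 to 58777534, plus strand) encodes a lipase that also cuts galactolipids and phospholipids. It stood at 237, 126 and 160 TPM in WT, against 99.4, 22.4 and 13.4 TPM in TLR4ΔIEC, again without overlap. Its log2 fold change was −2.39 (SE 0.67, 95% interval −3.98 to −0.80, limma adjusted p = 0.127).

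Both genes are best known from the exocrine pancreas, so 17 markers of pancreatic acinar cells were read in the same libraries. Of these, 5 were listed at 0 in all 6 libraries (Cela3b, Cpa1, Prss2, Try5 and Amy2b, the last of which GENCODE M21 annotates as a pseudogene), and 12, those 5 included, stayed under 1 TPM in each library. Pnlip, the main pancreatic lipase, was at 0 to 0.10 TPM, and Cel at 0 to 0.03 TPM. The summed markers were 13.1 to 15.2 TPM in WT, against 9.73 to 22.8 TPM in TLR4ΔIEC, of which Cela1 alone made 6.27 to 14.5 TPM. Pnliprp1, the neighbour and closest relative of Pnliprp2, was low, with 2.95, 1.38 and 1.36 TPM in WT, against 1.10, 0.23 and 0.34 TPM in TLR4ΔIEC (log2 fold change −0.89, limma adjusted p = 0.187). Like Clps and Pnliprp2 it was lower in every TLR4ΔIEC library than in any WT library. The other tested acinar markers among those of highest mean, Sycn and Gp2, reached 2.16 and 5.45 TPM at most. The part of pancreatic RNA in the levels of Clps and Pnliprp2 was not tested.

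Habp2 (ENSMUSG00000025075, chromosome 19, 56287137 to 56320822, plus strand) encodes a serine protease that binds hyaluronan and is also made by the liver. It stood at 21.1, 17.1 and 18.3 TPM in WT. In TLR4ΔIEC replicate 1 it was at 25.1 TPM, above every WT library, and in replicates 2 and 3 at 2.11 and 3.06 TPM. It had a log2 fold change of −1.52 (SE 0.74, limma adjusted p = 0.290), whose 95% interval, −3.26 to 0.22, was the single one of the 9 to include 0. Hgfac, a protease of the same family, stood at 12.9 to 15.9 TPM in WT, against 13.3 to 28.3 TPM in TLR4ΔIEC.

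**Figure D2:**
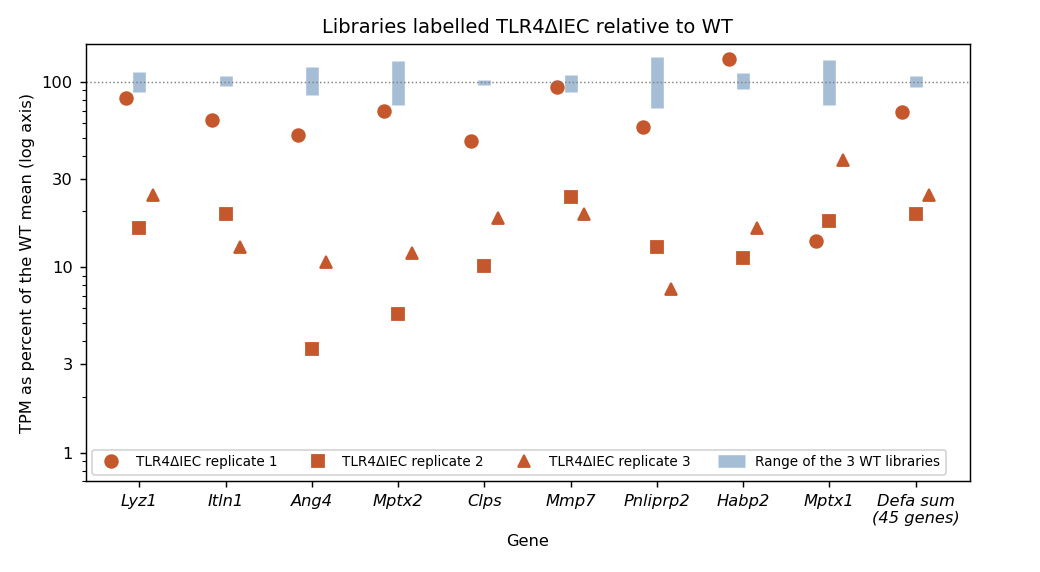
TPM of each gene in the 3 libraries labelled TLR4ΔIEC as a percent of the WT mean on a log axis, with the range of the 3 WT libraries as a blue bar and the sum of 45 alpha-defensin genes at the right. Replicate 1 ranges from 13.8% (Mptx1) to 133% (Habp2), and replicates 2 and 3 from 3.60% (Ang4) to 37.9% (Mptx1).

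The 3 mice labelled TLR4ΔIEC were not alike. Replicate 1 was the highest of them in 8 of 9 genes, at 48.2% to 133% of the WT mean, and replicates 2 and 3 were at 3.60% to 24.4% in the same 8. Replicate 2 was the lowest for Lyz1, Ang4, Mptx2, Habp2 and Clps, and replicate 3 for Mmp7, Itln1 and Pnliprp2. The SD of log2(TPM + 1) was 0.043 to 0.457 in WT and 0.448 to 1.93 in TLR4ΔIEC. Without replicate 1 the fit called 8 of 9 as lower, against 0.785% of all tested genes (105 of 13379), with log2 fold changes from −2.20 for Mmp7 to −3.98 for Ang4 and limma adjusted p from 0.00935 to 0.0264. Mptx1 was the exception, with −1.41 and an adjusted p of 0.0630. That fit has 2 libraries labelled TLR4ΔIEC. With array weights, which give less weight to libraries that vary more, 1 of 9 was called (Clps), against 0.282% of all tested genes as lower. Replicates 2 and 3 also had the ileal marker sums farthest from WT. Replicate 1 had the proximal marker sum farthest from WT. Both sums are given further on, and their part in these levels was not tested. Leaving out any other single library called 0 of 9, with a lowest log2 fold change of −3.08 (Ang4) and a highest of −0.94 (Habp2). Without replicate 2, the library that stood apart, Lyz1 had −1.15, Ang4 −2.07, Mptx2 −1.76 and Habp2 −0.94.

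**Figure D3:**
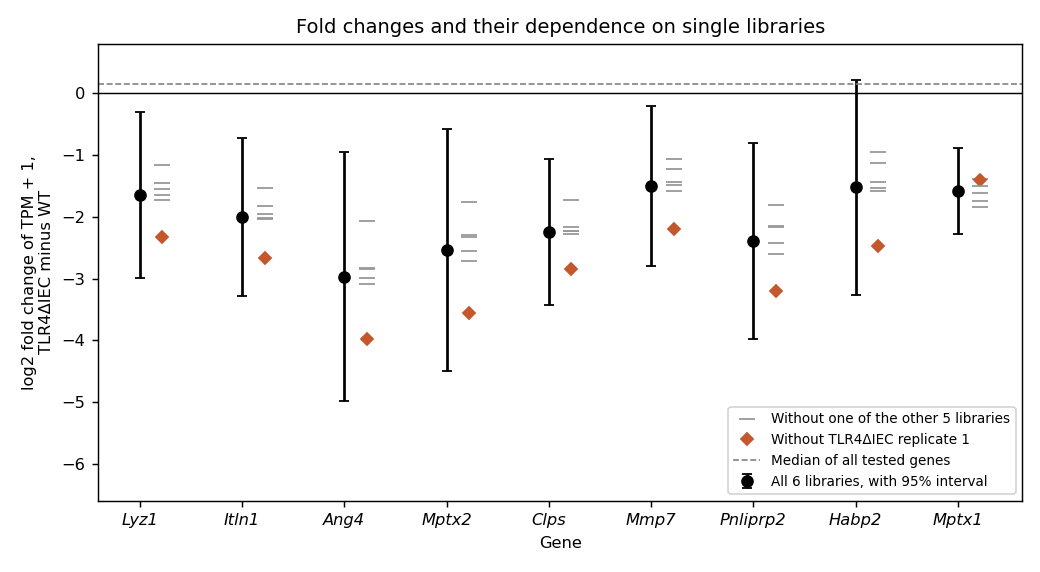
log2 fold change of TPM + 1 for each gene, with the value from all 6 libraries and its 95% interval in black, the values without TLR4ΔIEC replicate 1 as orange diamonds and those without any other single library as grey dashes. All values lie below 0 and below the median of all tested genes (0.16), and 8 genes are farthest from 0 without replicate 1.

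The order of the 9 messages in WT was Lyz1, Itln1, Ang4, Mptx2, Clps, Mmp7, Pnliprp2, Habp2 and Mptx1. Each neighbour in this order lay above the next in 3 of 3 WT libraries with no overlap, except Clps and Mmp7, whose ranges overlapped. In TLR4ΔIEC the same order held in 3 of 3 libraries for each neighbouring pair but Clps and Mmp7, although the ranges overlapped for every pair. Ranked among all genes by mean, Lyz1 went from place 18 in WT to 40 in TLR4ΔIEC, Ang4 from 52 to 259 and Pnliprp2 from 606 to 2482.

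Ratios between messages of one library do not depend on how TPM are scaled, and for some of the 9 genes they lay apart between the groups. Ang4 was 27.7%, 31.5% and 40.5% of Lyz1 in WT and 20.8%, 7.32% and 14.5% in TLR4ΔIEC. Clps was 4.41%, 5.33% and 5.02% of Lyz1 in WT and 2.86%, 3.05% and 3.70% in TLR4ΔIEC. Clps was thus lower relative to Lyz1 in replicate 1 as well. Pnliprp2 was 1.77% to 2.60% of Lyz1 in WT and 0.678% to 1.71% in TLR4ΔIEC. For these 3 ratios the groups did not overlap (exact two-sided permutation p = 0.1 each, the smallest that 3 against 3 allows, with 8 ratios to Lyz1 computed, so that none can pass an adjustment). For Mmp7, Itln1, Mptx1, Mptx2 and Habp2 the ratio to Lyz1 overlapped, with exact permutation p of 0.2 to 1.0. Of all 36 pairs among the 9 genes, 9 had ratios that did not overlap between the groups (25.0%). Among single genes, 27.6% of all tested had levels apart in either direction, but levels depend on the scaling and ratios do not. The share over pairs of other genes was not computed, so the count is not read as a result about these genes. The 9 pairs were Lyz1 and Mmp7 each against Ang4 and Pnliprp2, Lyz1 against Clps, Mmp7 against Itln1 and Mptx2, and Ang4 against Itln1 and Habp2.

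**Figure D4:**
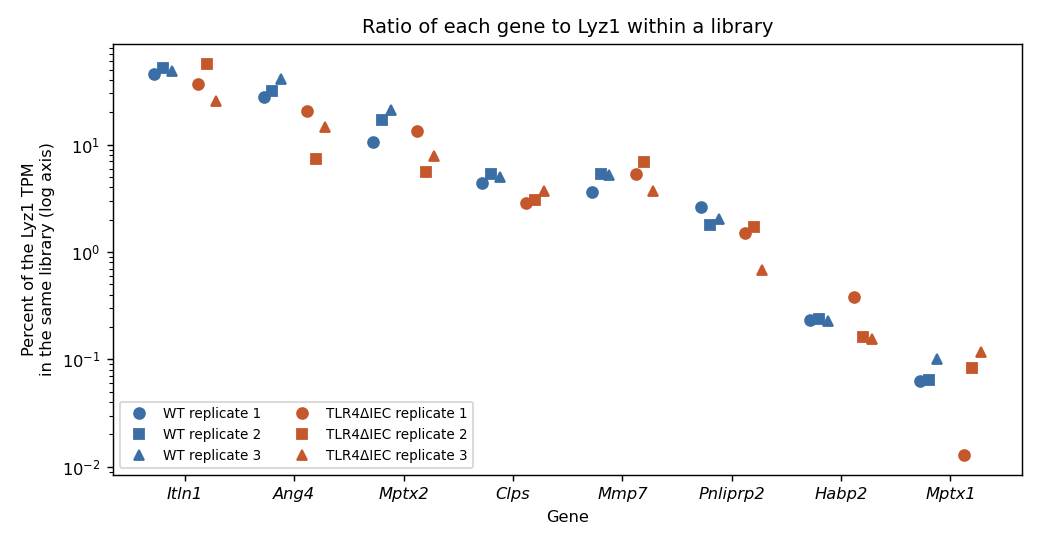
TPM of each of 8 genes as a percent of the Lyz1 TPM in the same library on a log axis, with WT in blue and TLR4ΔIEC in orange. The groups are apart for Ang4, Clps and Pnliprp2 and overlap for the other 5 genes.

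None of the tested regulators of the Paneth cell passed the threshold. Of 18 listed regulators of Paneth fate and secretion, 16 were tested, 0 were called by limma, 7 had log2 fold changes below 0 and 9 above 0, and their median was 0.06. The sum of all 18 was at 101% to 105% of the WT mean in the libraries labelled TLR4ΔIEC, and without Xbp1, the most abundant of them, at 97.0% to 117%, with single genes on both sides. The 4 of highest mean were Xbp1, which drives the endoplasmic reticulum of secretory cells, Fzd5, the Wnt receptor needed for Paneth maturation, Atoh1, the master factor of the secretory lineage, and Spdef, a factor of goblet and Paneth maturation. Xbp1 stood at 112 to 137 TPM in WT, against 110 to 130 TPM in TLR4ΔIEC, and Fzd5 at 22.3 to 23.6 TPM and 25.7 to 32.2 TPM. Atoh1 was at 16.6 to 19.8 TPM in WT, against 15.4 to 28.2 TPM in TLR4ΔIEC, and Spdef at 16.9 to 17.8 TPM and 14.6 to 22.1 TPM. Their limma adjusted p were 0.849, 0.228, 0.541 and 0.729, and Spdef had a log2 fold change below 0 under each of 4 other scalings. One regulator was singled out after its values were seen. Bhlha15, also known as Mist1, a factor that builds the granule apparatus of secretory cells, stood at 8.21, 8.78 and 8.50 TPM in WT, against 6.16, 1.69 and 2.43 TPM in TLR4ΔIEC. It had the single log2 fold change under −1 among the tested regulators, −1.23 (SE 0.35, limma adjusted p = 0.130), and −1.64 without TLR4ΔIEC replicate 1 (adjusted p = 0.0265).

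Of 8 signals and surface proteins of the Paneth niche, 6 were tested and 0 were called, 3 with log2 fold changes below 0 and 3 above 0. The 4 of highest mean were Cd24a, a surface protein of Paneth cells and progenitors, the Notch ligands Dll1 and Dll4, and the growth factor Tgfa. Cd24a was at 120 to 162 TPM in WT, against 41.0 to 130 TPM in TLR4ΔIEC, and Dll1 at 8.66 to 12.3 TPM and 8.06 to 15.6 TPM. Dll4 was at 4.23 to 5.18 TPM and 7.19 to 11.5 TPM, higher in each TLR4ΔIEC library, and Tgfa at 6.08 to 7.66 TPM and 7.54 to 10.4 TPM. Their limma adjusted p were 0.341, 0.744, 0.141 and 0.314. Wnt3, the Wnt ligand of Paneth cells, was singled out after its values were seen. It stood at 3.76, 3.28 and 3.36 TPM in WT, against 3.34, 0.58 and 0.78 TPM in TLR4ΔIEC, with replicate 1 inside the WT range, as for Mmp7 (log2 fold change −0.95, SE 0.39, limma adjusted p = 0.222).

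Genes were also ranked by how closely log2(TPM + 1) over the 6 libraries followed the mean pattern of the 9 members, among 6675 genes whose mean reached 10 TPM. Of the 50 most alike, 23 were alpha-defensins, of which 30 were among the genes ranked. The 6 named genes at the top beside them were Olfm4, Tmprss2, Tmed6, Hpd, Rps6-ps4 and Apol7c, with Pearson r from 0.994 to 0.977. Olfm4, a secreted glycoprotein of crypt stem cells, stood at 196, 194 and 199 TPM in WT, against 165, 39.2 and 47.0 TPM in TLR4ΔIEC (log2 fold change −1.53, limma adjusted p = 0.158). Tmed6, a transport protein of the early secretory pathway, was at 15.8, 13.5 and 14.4 TPM in WT, against 14.8, 1.31 and 2.04 TPM in TLR4ΔIEC. The r of each member with the mean of the other 8 was 0.942 to 0.989, except for Mptx1 with 0.637. These values rest on 6 libraries that share one scaling, and are a description.

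Summed markers of other cells and of gut regions also stood at different levels in the groups, and their part in the levels of the Paneth products was not tested. Of 8 crypt stem cell markers, 0 were called by limma and 7 had log2 fold changes below 0. Their sum was 281 to 298 TPM in WT, 278 TPM in TLR4ΔIEC replicate 1 and 115 and 126 TPM in replicates 2 and 3, but Olfm4 alone made 194 to 199 TPM of it in WT. The other 7 markers summed to 82.8 to 102 TPM in WT and to 113, 75.9 and 78.6 TPM in TLR4ΔIEC replicates 1 to 3, or 123%, 82.8% and 85.7% of the WT mean. Beside Olfm4, those of highest mean were Axin2, Slc12a2 and Smoc2, with log2 fold changes of 0.61, −0.37 and −0.75 (limma adjusted p = 0.111, 0.494 and 0.231). Axin2 alone made 40.58 and 40.25 TPM of the sum without Olfm4 in replicates 2 and 3, against 21.15 to 27.24 TPM in WT. Each remaining marker of that sum was below its WT mean in replicates 2 and 3. Lgr5 stood at 2.82 to 3.63 TPM in WT, against 4.4, 0.63 and 1.38 TPM in TLR4ΔIEC replicates 1 to 3. Of 9 macrophage markers, 0 were called and all 9 had log2 fold changes below 0 with all 6 libraries, although C1qa, C1qb, C1qc and Lyz2 were above 0 without TLR4ΔIEC replicate 2. Cd68 (8.92 and 6.90 TPM) and Mrc1 (2.89 and 2.17 TPM) were above their WT means of 6.83 and 1.95 TPM in TLR4ΔIEC replicates 1 and 3. For Csf1r, Adgre1 and Cx3cr1 replicate 3 lay below every WT library. The sum of the 9 macrophage markers was 229 to 264 TPM in WT, against 322, 104.5 and 248 TPM in TLR4ΔIEC, so that it was lowest in replicate 2. Each of 5 mesothelial markers stayed under 1 TPM in every library, and of 6 colon markers 0 were called.

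Of the goblet markers, those of highest mean were Zg16, Tff3, Spink4 and Fcgbp, which encode secreted proteins of mucus. Zg16 was at 4444 to 5430 TPM in WT, against 7678 to 12919 TPM in TLR4ΔIEC, Tff3 at 3262 to 3644 TPM and 4858 to 8135 TPM, and Fcgbp at 688 to 737 TPM and 1331 to 2512 TPM, without overlap (limma adjusted p = 0.153, 0.170 and 0.0913). Spink4, which Paneth cells also make, was at 2635 to 2678 TPM in WT, against 2685, 1522 and 1897 TPM in TLR4ΔIEC.

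Markers of gut regions differed as well. Of 10 markers of the proximal small intestine, 9 were tested, 7 with log2 fold changes below 0 and 2 above 0. As lower, 4 were called (Lct, Gata4, Enpp7 and Apoa4, limma adjusted p = 0.0316, 0.0494, 0.0350 and 0.0350), and 0 were called as higher. The 2 above 0 were Slc40a1 and Cyp3a11, with log2 fold changes of 1.51 and 0.09 (limma adjusted p = 0.0913 and 0.969). Slc40a1 was higher in every TLR4ΔIEC library than in any WT library. Each of these 4 calls was lost without WT replicate 2 or without TLR4ΔIEC replicate 2, and Apoa4 and Gata4 were also lost without WT replicate 1, WT replicate 3 or TLR4ΔIEC replicate 3, Enpp7 without WT replicate 3, and Lct without TLR4ΔIEC replicate 3. Of the 19 settings, the stated one included, Lct and Enpp7 were each called in 14, Apoa4 in 11 and Gata4 in 8. The log2 fold changes stayed below 0 in all 19, at −6.35 to −3.18 for Lct, −4.38 to −2.08 for Gata4, −3.42 to −2.82 for Enpp7 and −2.87 to −2.25 for Apoa4. The proximal sum was 1189 to 2525 TPM in WT, against 221, 246 and 372 TPM in TLR4ΔIEC replicates 1 to 3. Of 10 ileal markers, 9 were tested and 0 were called, 8 with log2 fold changes above 0. Their sum, mostly Fabp6, was 4479 to 9317 TPM in WT, against 12232, 38720 and 28578 TPM in TLR4ΔIEC. Without Fabp6 the sum was at 125%, 189% and 178% of the WT mean in TLR4ΔIEC replicates 1 to 3, against 92.0% to 110% in WT. TLR4ΔIEC replicate 1, the highest of the 3 for 8 of 9 Paneth products, was thus the lowest in the proximal sum and the nearest to WT in the ileal sum. The stretch of intestine sampled is not given, so genotype and region cannot be told apart here.

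**Figure D5:**
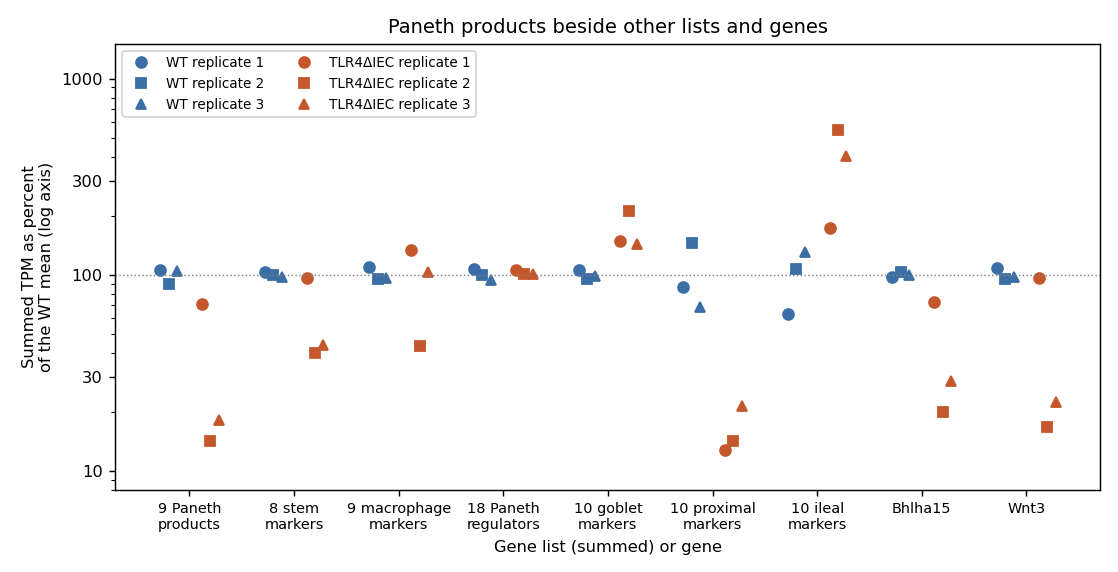
Summed TPM of the 9 Paneth products and of 6 other gene lists, and TPM of Bhlha15 and Wnt3, in each library as a percent of the WT mean on a log axis. TLR4ΔIEC replicates 2 and 3 are low in Paneth products (14.1% and 18.2%) and in the stem cell sum (40.0% and 43.6%). In WT that sum is mostly Olfm4. Without Olfm4 it stands at 82.8% and 85.7% in these replicates, with Axin2 in it at 163% and 161%. The remaining markers in it are each below their WT means in these replicates.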

How the data were processed

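The authors deposited 1 table of TPM per gene for the 6 libraries, with no read counts. Per the submitters' processing notes, fastp, HISAT, RSEM and the mouse build GRCm38.p5 were used, while their versions, settings and strand handling are not given in the sources used here. Group means that the authors added to the table were left aside. Per the labels' protocols, RNA was extracted with TRIzol and treated with DNase I, and each library was put in its group, with its replicate number, by its title (3 mice per genotype in the design text). Coordinates are those of GENCODE M21 (GRCm38), which holds 52093 of the 54012 identifiers, and promoter windows are from RefSeq (GRCm38.p6).

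Genes whose mean reached 1 TPM were tested, as log2(TPM + 1), by limma (version 3.58.1, under R 4.3.3; lmFit and eBayes with trend, two-sided, genotype as the single term). This scale understates the change of low genes. The fit was tested on data simulated for the 13458 genes of this comparison. It found 37 of 100 genes given a log2 change of 1 and 80 of 100 given 2, with 6 false calls. Recovery of genes with the spread of the Paneth products was not tested separately, so these rates do not apply to them. The SD of log2(TPM + 1) of those products was 0.043 to 0.457 in WT, against 0.448 to 1.93 in TLR4ΔIEC. Limma called 0 of them at a median log2 fold change of −2.0. Single ratios were compared by exact permutation tests (scipy 1.17.1).

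The members and gene lists were chosen with earlier results of these data known. Genes beside the members were named by a rule: those of a list past the threshold, filled up to 4 by mean TPM, the closest listed relative of a member, and the 6 most and 3 least alike genes in pattern. Bhlha15 and Wnt3 were named after their values were seen, as were markers quoted as listed at or near 0. Alternatives were other pseudocounts, filters, scalings and variance models, a replicate block, and each library left out in turn.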

Additional observations from a re-analysis of the deposited data

How the results depend on the processing

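Over the 18 alternatives each of the 9 Paneth products kept its negative log2 fold change wherever it had a value (161 values). With a pseudocount of 0.1 or 5 TPM Mptx1 was at −2.12 or −0.79, and with a minimum mean of 5 TPM Mptx1 had none. With all 6 libraries under the stated settings limma called 0 of the 9, and 8 at an unadjusted p under 0.05. Array weights called 1 of 9 (Clps, adjusted p = 0.0474), and leaving out each library in turn gave 0 to 8 of 9, the 8 without TLR4ΔIEC replicate 1. Over all genes 16 were called, against 0 with no filter (3377 at an unadjusted p under 0.05 by limma), 7 with a mean of at least 5 TPM, 136 with array weights and 0 to 367 with each library left out. With the replicate number as a block 1 gene and 0 of the 9 were called. Same-numbered libraries deviated together with r of −0.04, 0.04 and 0.12. With so few libraries per group these values cannot decide whether the numbers pair the mice, and the labels name no pairing. The median of all genes was 0.16. It was 0.03 with median-of-ratios scaling, 0.02 after quantile normalization, 0.00301 with TPM rescaled without the 20 highest genes and −0.13 without alpha-defensin, mitochondrial and 18S-like genes. In that order of scalings Cela1 turned to −0.0493, −0.0874, −0.0760 and −0.217, Slc26a3 to −0.0011, −0.129, −0.0246 and −0.172, and Spdef to −0.0108, −0.0967, −0.0347 and −0.179. Under the last, Atoh1, Dll1 and Guca2b turned to −0.0405, −0.132 and −0.0553. With array weights Dll1 turned to −0.0657 and Lyz2 to 0.0623. With each library left out, genes that changed sign ranged from −0.378 to 0.196 (C1qa), −0.769 to 0.0472 (C1qb), −0.68 to 0.0435 (C1qc), −0.142 to 0.403 (Cela1), −0.0292 to 0.407 (Dll1), −0.884 to 0.411 (Lyz2) and −0.129 to 0.0172 (Xbp1). The cause was not tested in any of these. TPM carry no depth, so no counting error could be given for low genes such as Mptx1.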

Other observations

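The named genes whose pattern over the 6 libraries was most opposed to the 9 Paneth products were Gchfr, Acnat1 and Arpc1a, with Pearson r of −0.999, −0.999 and −0.996. Gchfr, which encodes the feedback regulator of tetrahydrobiopterin synthesis, stood at 25.9, 28.8 and 25.5 TPM in WT, against 32.9, 70.6 and 60.4 TPM in TLR4ΔIEC replicates 1 to 3 (log2 fold change 0.94, SE 0.28, limma adjusted p = 0.136). Acnat1, a peroxisomal acyltransferase, was at 8.13, 8.31 and 7.89 TPM in WT, against 9.66, 15.5 and 14.2 TPM in TLR4ΔIEC. Arpc1a, an actin-nucleating subunit, was at 70.3 to 76.2 TPM in WT, against 81.1 to 117 TPM in TLR4ΔIEC. In each of the 3 genes replicate 1 lay between WT and the other replicates labelled TLR4ΔIEC, with no overlap between the groups. The choice of genes by pattern largely fixes this order, so it is not a separate result.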
